A study of Mus musculus with 15 samples.

Results

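Gata4, Gata6, Nkx2-5, Tbx5, Tbx20, Mef2a, Mef2c, Hand1, Hand2 and Srf are the core cardiac transcription factors, proteins that bind DNA and switch on the genes of heart muscle. They were found on the arrays by the accession of each non-control probe, which maps 18 probes to these 10 of the 18535 genes that the probes name. The levels of their transcripts are described in mouse hearts after long exposure to methamphetamine (meth) or to phosphate buffered saline (PBS).

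Each of 15 C57BL/6 mice gave heart RNA that was labelled with Cy3 and hybridised to an Agilent mouse array of its own. Meth hydrochloride in PBS was injected into the abdomen every week for 5 months, in weekly steps of 2 mg up to 40 mg/kg at week 20, and control mice were injected with PBS alone. Meth hearts came from 4 males and 4 females, and PBS hearts from 4 males and 3 females. The labels give no age, while the study states one for the start of dosing. Early deaths are reported among meth males only, so that the male meth hearts are those of survivors. The males came from 2 trials, with 2 meth and 2 PBS hearts in each. The titles place all females in trial 1, and the study describes its later trial as one of males alone, which the fit follows, while another label places female meth replicates 3 and 4 and female PBS replicate 3 in trial 2.

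The arrays lay on 4 slides, and every slide held meth and PBS hearts. The hearts of trial 2 males filled slide 3, the 3 females whose labels differ were on slide 4, and the remaining hearts, of both sexes, were on slides 1 and 2. The slide 4 arrays were brighter, with a 75th percentile of the signal of 438 to 589 against 307 to 403 on the other slides, and they stood apart on the first principal component, which held 27.2% of the variance. For the genes that differed on slide 4, the female log2 fold change is also given without these 3 arrays.

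Heart muscle genes are read by a small set of transcription factors that work together on shared enhancers. Zinc finger proteins of the GATA family, the homeodomain protein NKX2-5, T-box proteins, MADS-box proteins of the MEF2 family with SRF, and the basic helix-loop-helix HAND proteins bind different short DNA words and also bind each other. Loss of most of them in the embryo disturbs the formation of the heart, and several continue to be made in the adult heart, where they keep up the transcripts of contraction and take part in growth under load.

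A value is the log2 of the background-subtracted brightness of a probe minus the log2 of the array's 75th percentile, so that 0 stands for that percentile. A probe was tested when 3 or more of the 15 arrays had it well above background, as 28358 probes did, and a gene is given by its brightest tested probe. Of the 10 factors, 9 were tested, through 17 probes, and 16 of these probes were well above background on all 15 arrays. Hand1, which acts in the left ventricle of the embryo, was not well above background on any of the 15, so that its level has only an upper bound. All 9 tested cardiomyocyte markers were well above background on every array, with a summed signal of 2924 to 4232 times the 75th percentile.

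No core cardiac transcription factor passed the test for meth against PBS in either sex. Comparisons were tested with limma, a linear model that shares information on the spread across probes, and p was adjusted by Benjamini-Hochberg over all tested probes. In males 0 of 9 genes passed at an adjusted p under 0.05, where 1.11% of all tested probes did, and in females 0 of 9 passed, beside 0.758% of probes. Over both sexes together, called the shared response, 0 of 9 passed while 2.65% of probes did, and the test of the male response against the female one passed for 0 of 9, with 0.138% of probes. In a fit with slide in place of trial, given further on, Hand2 passed in the shared response (adjusted p = 0.0468). Between male and female PBS hearts 0 of 9 passed, beside 0.480% of probes. With trial in the fit and all arrays, the counts for the 9 genes at an unadjusted p under 0.05 were also 0 in all 5 comparisons, where the shares of all tested genes were 13.2%, 7.79%, 12.8%, 8.11% and 15.3% in the order given. Without the slide 4 arrays such a p was found for Gata4, Nkx2-5 and Srf in males and for Hand2 in females. In the shared response it was found for Gata4, Gata6, Nkx2-5 and Hand2, and between PBS hearts for Hand2. None of these passed after adjustment. Of the 28358 probes, 5595, 2832, 4530 and 5120 had such a p there, in that order. By the methods' t-test 0 of the 9 genes passed after adjustment, as did 0 of all probes when paired, and 18 in males and 0 in females when unpaired. Paired by replicate number, its unadjusted p was under 0.05 for 3 genes in males (Gata4, Nkx2-5 and Hand2) and for 1 in females (Gata6), and unpaired for 0 in each sex. Of the 28358 probes, 4313 in males and 2817 in females had such a p when paired, and 3769 and 2350 unpaired. All p-values are two-sided and rest on the spread between animals and between arrays together, since each animal has 1 array.

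With trial in the fit, the estimates were small and the intervals held both signs. The median log2 fold change of the 9 genes was -0.07 in males, where that of all 14309 tested genes was -0.02, and -0.07 in females, where it was 0.03 for all. In the shared response it was -0.09, against 0.00 for all tested genes. Single genes ran from -0.25 to 0.14 in males and from -0.14 to 0.35 in females. The 95% intervals of the 9 genes reached from -0.78 to 0.55 in males and from -0.66 to 0.79 in females in that fit. With slide in place of trial, the intervals of Gata4 and Hand2 in each sex and of Gata6 in females lay on one side of 0, as from -0.46 to -0.04 for Gata4 in males (adjusted p = 0.187), and 0 of 9 genes passed in either sex. With the slides pooled, the meth arrays overlapped the PBS arrays for all 9 genes in both sexes. The share of all tested genes with such overlap was not counted.

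**Figure D1:**
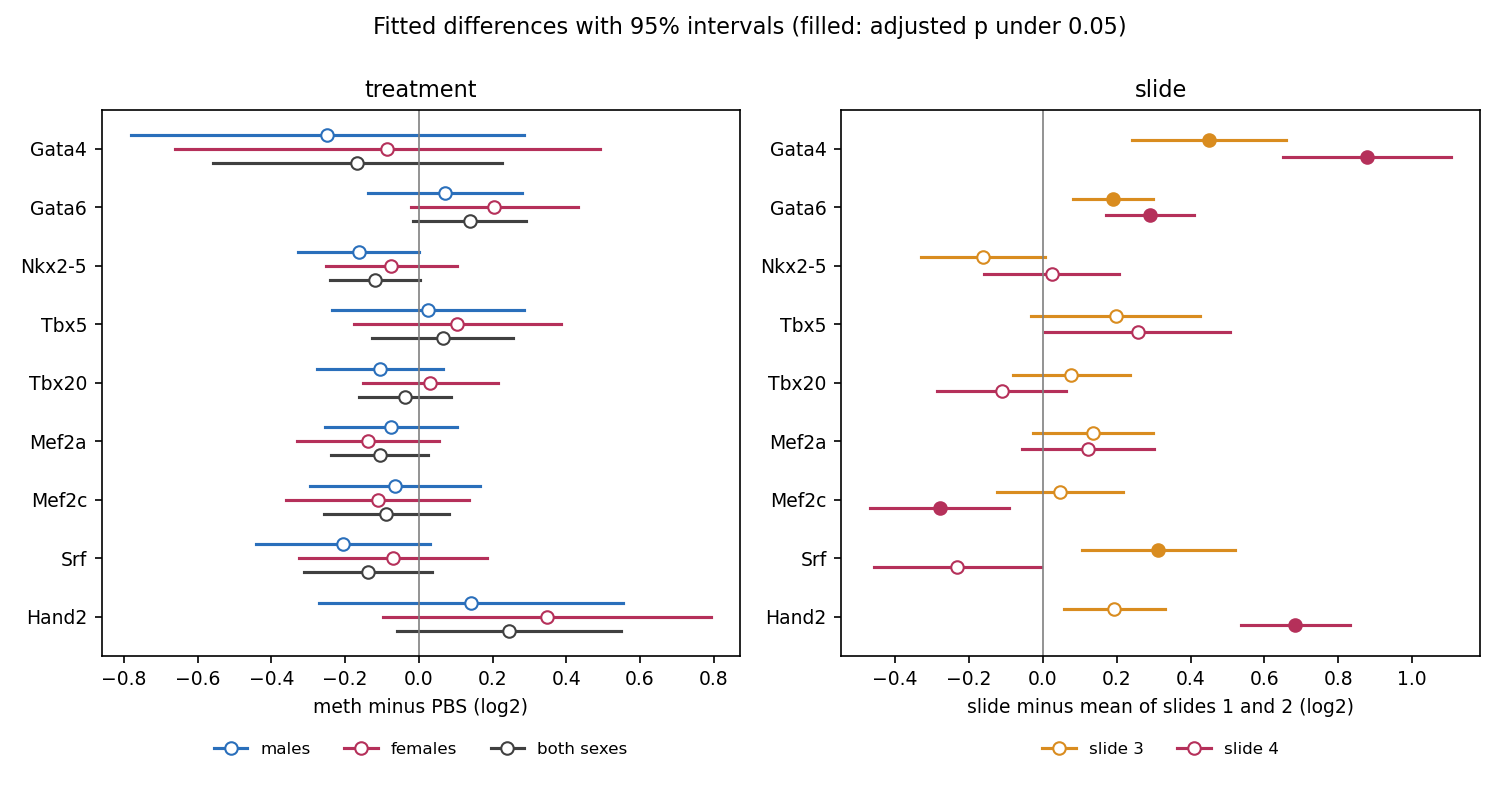
Fitted log2 differences of the 9 tested genes with 95% intervals, meth minus PBS in males, in females and over both sexes on the left, and slide 3 and slide 4 minus the mean of slides 1 and 2 on the right. Filled points have an adjusted p under 0.05. No treatment difference is filled, while Gata4, Gata6 and Srf are filled for slide 3 and Gata4, Gata6, Mef2c and Hand2 for slide 4.

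Gata4 encodes a zinc finger protein needed in adult heart muscle for growth under load. In males its normalized log2 signal was -1.59, -1.41, -0.96 and -1.23 on the meth arrays and -1.30, -1.29, -0.76 and -0.85 on the PBS arrays, trial 1 first. In females it was -1.70, -1.42, -0.78 and -0.70 after meth and -1.24, -1.52 and -0.42 after PBS. The trial 2 males and the 3 slide 4 females were the highest arrays of their groups whatever the treatment, and meth and PBS arrays overlapped. The log2 fold change was -0.25 (standard error 0.25) in males and -0.09 (standard error 0.27) in females, with a shared adjusted p of 0.770. The female value was -0.18 without the slide 4 arrays and -0.23 with slide in place of trial, and over the settings it ran from -0.31 to 0.23, turning sign without female PBS replicate 3 or female meth replicate 1 or 2. Its other probe, A_51_P492355, gave -0.14 and -0.11.

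Gata6, the close relative of Gata4 that is made in heart muscle, smooth muscle and other tissues, had estimates above 0 on its brightest probe. The signal in males was 2.95, 2.93, 3.08 and 3.20 after meth and 2.97, 2.79, 3.05 and 3.07 after PBS. In females it was 2.98, 2.92, 3.26 and 3.21 after meth and 2.82, 2.76 and 3.08 after PBS. The trial 2 males and the slide 4 females were again the highest arrays of their groups, and each female meth array lay above the PBS array or arrays of its own slide, though the groups overlapped across slides. The log2 fold change was 0.07 (standard error 0.10) in males and 0.21 (standard error 0.10) in females, with an adjusted p of 0.508 in females, where it was 0.16 without slide 4. Of its 2 other probes, A_52_P590175 gave 0.25 and 0.20, and A_52_P176245 gave -0.03 and 0.05.

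Nkx2-5, the homeodomain factor that is among the first marks of heart muscle, had the lowest adjusted p of the 9 genes in males. Its signal was 3.63, 3.68, 3.47 and 3.44 on the male meth arrays and 3.77, 3.79, 3.72 and 3.60 on the male PBS arrays. Only trial 2 PBS replicate 2 lay within the range of the meth arrays, and within each trial every meth array lay below every PBS array. Meth hearts averaged 3.56 ± 0.12 (SD, n = 4), PBS hearts averaged 3.72 ± 0.09 (SD, n = 4), and the difference missed the threshold in an exact permutation test (p = 0.0857, where 0.0286 is the smallest p that 4 arrays against 4 allow). The permutation test took no account of trial. In limma the log2 fold change was -0.16 (standard error 0.08, unadjusted p = 0.0509, adjusted p = 0.392). In females the arrays read 3.43, 3.62, 3.71 and 3.46 after meth and 3.74, 3.54 and 3.61 after PBS, which overlapped, and meth minus PBS was -0.07 (standard error 0.08). The male minus female response was -0.09 (adjusted p = 0.864), so no difference between the sexes was shown.

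The T-box genes Tbx5 and Tbx20 encode factors of chamber and conduction tissue, TBX5 mainly an activator and TBX20 able to activate or repress. In males Tbx5 read 2.29, 2.23, 2.15 and 2.25 after meth and 1.96, 2.00, 2.51 and 2.36 after PBS. The PBS arrays of trial 1 were thus the lowest and those of trial 2 the highest of the 8 male arrays, with the meth arrays between them. In females it read 2.12, 2.16, 2.34 and 2.29 after meth and 2.08, 1.92 and 2.38 after PBS, with overlap.

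By trial, the log2 fold change of Tbx5 between meth and PBS males was 0.28 in trial 1 and -0.23 in trial 2. The difference, -0.52, had an unadjusted p of 0.0233 and an adjusted p of 1.00, so it did not pass. Its other probe, A_51_P469338, gave 0.39 and 0.04. Trial 1 males had 0 of 9 genes past the threshold (0.300% of all probes) and trial 2 males 0 of 9 (0.356%), and the test of the difference between the trials' responses passed for 0 of 9 genes and 0 of 28358 probes (0%). At an unadjusted p under 0.05 the last count was 1 gene, Tbx5, and 1294 probes.

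Tbx20 had group means on its brightest probe of 1.60 ± 0.10 (SD, n = 4) for male meth, 1.70 ± 0.11 (SD, n = 4) for male PBS, 1.61 ± 0.11 (SD, n = 4) for female meth and 1.57 ± 0.02 (SD, n = 3) for female PBS. The log2 fold changes were -0.11 in males, 0.03 in females and -0.04 (adjusted p = 0.862) in the shared response. A dim probe, A_51_P445173, well above background on 12 of the 15 arrays, gave a shared log2 fold change of -0.42 (standard error 0.18, unadjusted p = 0.0356, adjusted p = 0.277). Over the 15 arrays the 3 Tbx20 probes followed each other weakly, with Pearson's r of 0.19 to 0.40, and the third probe, A_51_P427619, gave a shared log2 fold change of -0.01.

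The MADS-box genes Mef2a and Mef2c encode activators of muscle genes that respond to calcium signalling through class II histone deacetylases. Mef2a read -0.20, 0.00, -0.01 and 0.07 on male meth arrays and -0.15, 0.08, 0.01 and 0.21 on male PBS arrays. In females it read -0.18, -0.24, -0.15 and -0.12 after meth and -0.04, -0.16 and 0.10 after PBS. Female PBS replicate 2 was the only female PBS array within the range of the meth arrays, and an exact permutation test of the female difference missed the threshold at p = 0.0857. The permutation ignored slide, and on each slide the female meth arrays lay below the PBS array. With same-numbered arrays as a block, limma gave -0.15 in females (unadjusted p = 0.0426, adjusted p = 0.324). With slide in place of trial it gave -0.16 (unadjusted p = 0.0763, adjusted p = 0.380). Meth minus PBS gave -0.07 (standard error 0.08) in males and -0.14 (standard error 0.09) in females, and the other probe, A_52_P290579, gave -0.10 and -0.09.

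Mef2c read 1.39, 1.22, 1.41 and 1.36 in male meth hearts and 1.40, 1.40, 1.44 and 1.40 in male PBS hearts. In females it read 1.42, 1.41, 1.11 and 0.89 after meth and 1.32, 1.36 and 1.27 after PBS. The lowest 2 values of all 15 arrays were the female meth arrays of slide 4, while the female meth arrays of slides 1 and 2 lay above every female PBS array. The female log2 fold change of -0.11 (standard error 0.11) became 0.07 without the slide 4 arrays.

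Srf encodes the serum response factor, which turns on actin and smooth muscle genes and immediate early genes with its partners. In males it read 2.71, 2.51, 2.81 and 2.79 after meth and 2.69, 2.71, 3.12 and 3.14 after PBS, the highest being the PBS hearts of trial 2. In females it read 2.63, 2.88, 2.69 and 2.41 after meth and 2.92, 2.71 and 2.55 after PBS. Both sexes overlapped between treatments. The male log2 fold change was -0.21 (standard error 0.11, adjusted p = 0.465), the female one -0.07 (standard error 0.12), and by trial the male value was -0.08 in trial 1 and -0.33 in trial 2.

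Hand2 encodes a basic helix-loop-helix factor known for the right ventricle of the embryo and for sympathetic neurons, and had the largest shared log2 fold change of the 9 genes. In males it read 0.41, 0.36, 0.66 and 0.62 after meth and 0.30, 0.31, 0.49 and 0.39 after PBS. In females it read 0.29, 0.39, 1.01 and 0.99 after meth and 0.20, -0.03 and 0.80 after PBS. The slide 4 arrays stood far above the other females in both treatments, so that the groups overlapped, although every meth array lay above the PBS arrays of its own sex and slide. Group means in falling order were 0.67 ± 0.38 (SD, n = 4) for female meth, 0.51 ± 0.15 (SD, n = 4) for male meth, 0.37 ± 0.09 (SD, n = 4) for male PBS and 0.32 ± 0.43 (SD, n = 3) for female PBS. Neighbours in this order did not differ beyond their spread.

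The log2 fold change of Hand2 was 0.14 (standard error 0.19) in males, 0.35 (standard error 0.20) in females and 0.24 (standard error 0.14, adjusted p = 0.464) in the shared response. The female value was 0.26 without the slide 4 arrays (adjusted p = 0.359) and ran from 0.17 to 0.59 over the settings. The other probe, A_52_P420479, gave 0.05 in males and 0.28 in females (unadjusted p = 0.0387, adjusted p = 0.409). The male minus female response of Hand2 was -0.21 (adjusted p = 0.875).

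**Figure D2:**
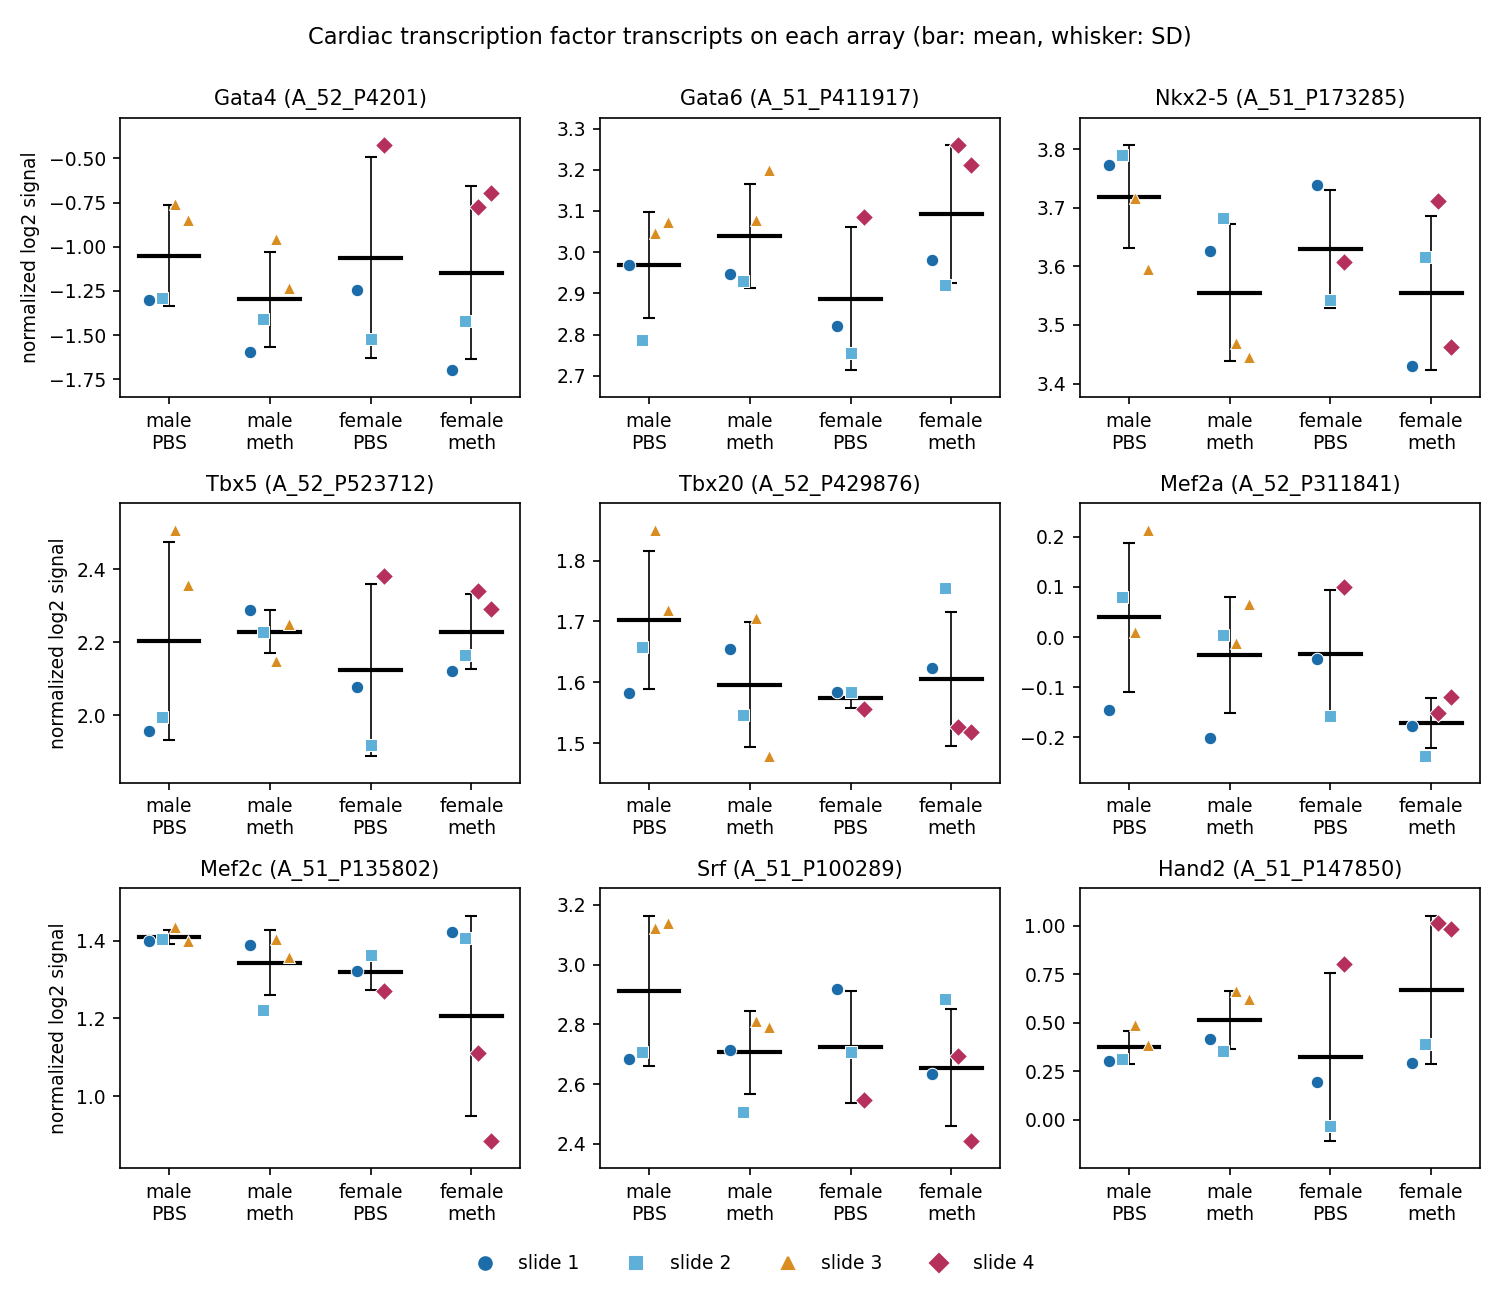
Normalized log2 signal of the 9 tested genes on each of the 15 arrays by group, with the slide as colour and shape, the mean as a bar and the SD as a whisker. Slide 4 arrays are the highest of their groups for Gata4, Gata6 and Hand2, and the lowest female meth arrays for Mef2c.

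Some of these genes differed by the slide on which a heart was measured. Slide terms were added to the fits after the data had been seen, with the 4 groups kept in the fit. Against slides 1 and 2, 4 of 9 genes differed on slide 4, where 33.9% of all probes and 37.5% of all genes did. Gata4 was higher there by 0.88 (standard error 0.10, adjusted p = 0.000325), Hand2 by 0.68 (standard error 0.07, adjusted p = 0.000155) and Gata6 by 0.29 (standard error 0.05, adjusted p = 0.00267), while Mef2c fell by 0.28 (standard error 0.08, adjusted p = 0.0279). The first 3 passed under every setting run, the mean over a gene's probes among them. Over these settings Gata4 ran from 0.53, with normexp, to 0.97, Hand2 from 0.51 to 0.74 and Gata6 from 0.23 to 0.50. The second probes of Gata4 (0.43, adjusted p = 0.00443) and Hand2 (0.34, adjusted p = 0.00407) also passed, with smaller differences. Of the other Gata6 probes, A_52_P590175 passed (0.90) and A_52_P176245 did not (0.14, adjusted p = 0.136). With normexp 12832 of the 16273 probes called on slide 4 were lower there. The Mef2c call was lost with normexp background correction (log2 difference -0.10) and without female meth replicate 1, 2 or 4, with adjusted p-values of 0.0164 to 0.108 over the arrays left out. Slide and scan session of these 3 females, and the label that differs, cannot be told apart.

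On slide 3, which held every trial 2 male and no other heart, 3 of 9 genes differed from slides 1 and 2, beside 14.7% of all probes and 14.1% of all genes. Gata4 was 0.45 higher (standard error 0.09, adjusted p = 0.0134), Srf 0.31 (standard error 0.09, adjusted p = 0.0494) and Gata6 0.19 (standard error 0.05, adjusted p = 0.0292). The other Gata4 probe did not pass (0.06, adjusted p = 0.650), so the slide 3 difference of Gata4 rests on 1 of its 2 probes. Of the other Gata6 probes, A_52_P176245 passed (0.41) and A_52_P590175 did not (0.40, adjusted p = 0.0536). The count was 0 with normexp background correction, 1 with a median shift, with no filter or without the slide 4 arrays, and 1 without male meth trial 1 replicate 2, male PBS trial 1 replicate 2, male meth trial 2 replicate 2 or either male PBS array of trial 2. The Srf call was lost without any one of 10 arrays and the Gata6 call without any one of 6, while Gata4 passed whichever array was left out but not with normexp (adjusted p = 0.0937) or with the mean over a gene's probes. With that mean the Srf call was also lost, while the Gata6 call was not. Here trial, slide and scan session cannot be told apart. Whether the slide counts of these 9 genes exceed the shares over all genes was not tested.

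Some markers of heart cell types differed by slide, though a smaller share of them did so than of all genes. Of 47 tested markers in 7 lists of heart cells, 5 were higher and 0 lower on slide 3 (14.1% of all genes differed), and 5 were higher and 8 lower on slide 4 (37.5% of all genes), among the latter 1 higher and 3 lower of 9 cardiomyocyte markers, and the summed cardiomyocyte signal was 2924 to 3156 there, against 3270 to 3787 on slides 1 and 2 and 3739 to 4232 on slide 3. The part of these differences in the slide terms of Gata4, Gata6, Hand2 and Mef2c was not tested. In RNA of heart tissue, fewer cells of a type, less RNA per cell, and the slide or scan session itself cannot be told apart.

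Because each slide held both treatments, meth and PBS hearts can be compared within a slide. There were 6 combinations of sex and slide, most with a single heart on each side. Hand2 was higher in the meth hearts in 6 of 6, by 0.11, 0.04 and 0.21 in males on slides 1, 2 and 3 and by 0.10, 0.42 and 0.19 in females on slides 1, 2 and 4. Gata6 was higher in 5 of 6, the exception being males on slide 1 at -0.02, and in 4 of 6 and 3 of 6 on its probes A_52_P590175 and A_52_P176245. Gata4 was lower in 5 of 6 on both probes, the exception being females on slide 2 at 0.10, and Nkx2-5 was also lower in 5 of 6. Mef2a was lower in 6 of 6 on both probes, from -0.24 to -0.06 on the brighter one. In all, 1 of 17 probes was higher in every combination, where 3.80% of all probes were, and 3 of 17 were lower, beside 6.35%. The last of these was the dim Tbx20 probe, which was not well above background on 3 arrays of slides 1 and 2 and gave -0.00 in males on slide 3. The second Hand2 probe was higher in 5 of 6. The share of all probes with 1 sign in 5 of 6 was not counted, so the counts of 5 of 6 have no comparison.

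When slide replaced trial in the fit, Hand2 passed the threshold in the shared response, as 1 of the 9 genes and beside 4.42% of all probes. The log2 fold change was 0.19 (standard error 0.05, 95% interval 0.09 to 0.29, adjusted p = 0.0468), from 0.24 with trial. Its second probe did not pass (0.14, adjusted p = 0.138), nor did the brighter probe with same-numbered meth and PBS arrays as a replicate block (0.19, adjusted p = 0.124). Of the 28 alternative settings run for the shared response of Hand2 it passed in this 1, with adjusted p-values from 0.0468 to 0.946 and log2 fold changes from 0.16 to 0.37, each above 0. Within neither sex did Hand2 pass with slide in place of trial (adjusted p = 0.240 in males and 0.126 in females). Gata4 at -0.24 (standard error 0.07, adjusted p = 0.0849) and Gata6 at 0.11 (adjusted p = 0.112) did not pass in the shared response of that fit.

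**Figure D3:**
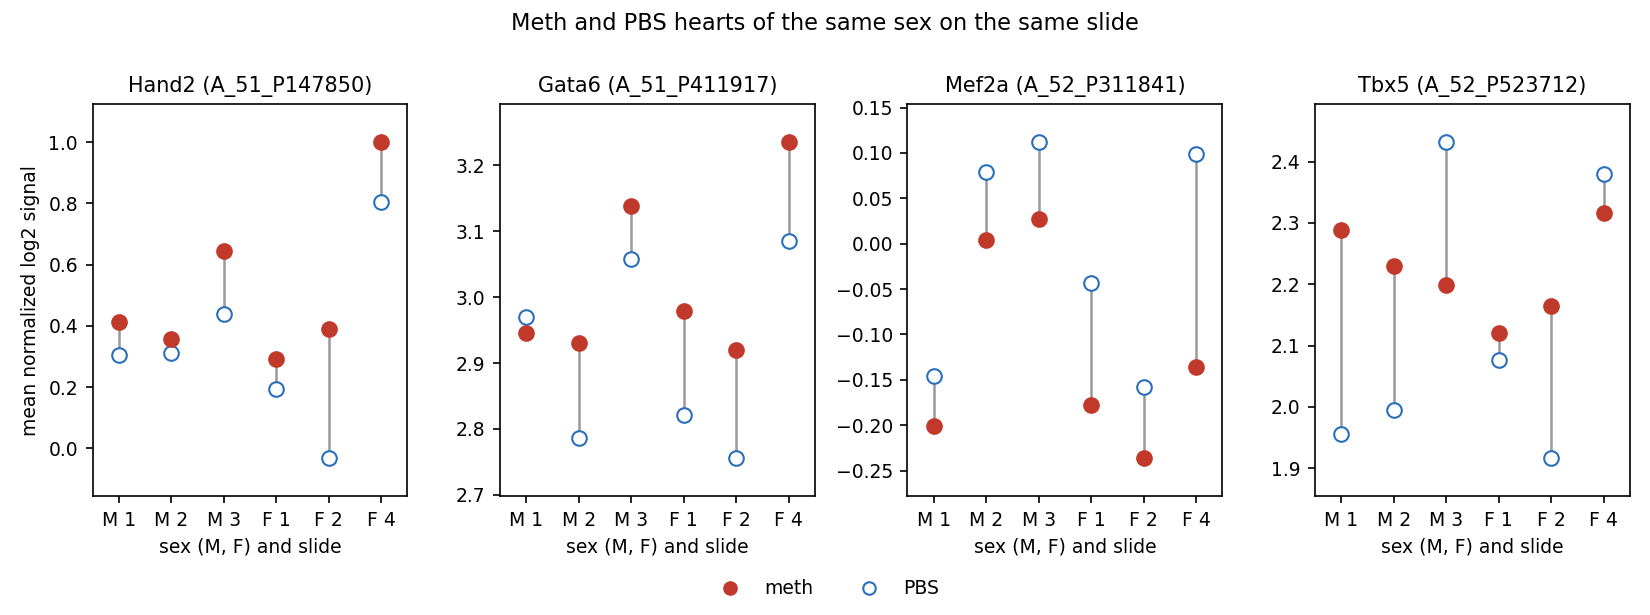
Mean normalized log2 signal of meth (filled) and PBS (open) hearts of the same sex on the same slide, for Hand2, Gata6, Mef2a and Tbx5. Meth lies above PBS in 6 of 6 combinations for Hand2 and in 5 of 6 for Gata6, and below it in 6 of 6 for Mef2a, while Tbx5 is above it in 4 of 6.

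The shared estimates of atrial markers lay above 0, as did those of 3 of the 9 genes, Hand2, Gata6 and Tbx5, while 6 lay below 0. None of these passed with trial in the fit. For all 8 tested atrial markers the shared log2 fold change was above 0, from 0.15 to 0.89 with a median of 0.34, and 0 of 8 passed in limma, 4 having an unadjusted p under 0.05, as 12.8% of all genes did. Their summed signal was 1059 to 1328 in male meth and 825 to 1143 in male PBS hearts, and 751 to 1003 in female meth and 587 to 753 in female PBS hearts, with all 8 well above background on every array. Of the sympathetic neuron markers, which bear on Hand2, 2 of 6 were tested and 0 passed, with a shared median of 0.27. This list was dim, with a summed signal of 0.0549 to 0.141 over the arrays. The other 4 markers were well above background on fewer than 3 arrays. The part of atrial or nerve tissue in the Hand2 values was not tested.

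How closely the factors followed each other depended on the pair and on the slide 4 arrays. The 36 pairs of the 9 genes had a median Pearson's r of 0.14 over 15 arrays that share slides and trials, and of 0.33 without slide 4. By Pearson's r Gata6 and Hand2 were the closest pair, with 0.89, and 0.84 over the 12 arrays without slide 4. By Spearman's rho the closest pair was Tbx20 and Mef2c, with 0.854, and 0.797 without slide 4. Gata6 and Hand2 had a rho of 0.846 and 0.713. Gata4 and Hand2 had an r of 0.73, which was 0.48 without slide 4, and Tbx20 and Srf had 0.71 and 0.66, while Gata4 and Srf went from 0.06 to 0.78. Mef2c ran opposite to Hand2 with an r of -0.67, but at 0.20 without slide 4 the sign turned, as it did for 10 of the 36 pairs. Probes of the same gene followed each other closely for Hand2 (r = 0.96) and Gata4 (0.87) and less so for Tbx5 (0.56).

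For each factor, the 2 most similar of 14300 other genes over the 15 arrays were looked up by Pearson's r, as a description. Closest to Gata4 were Phf12 (0.95) and Ttll4 (0.95), and closest to Gata6 were Ggnbp2 (0.93) and Frem2 (0.92). Hand2 was followed by Tmem184c (0.96) and Cltb (0.96), and Srf by Tpr (0.96) and Larp7 (0.95). Nkx2-5 had Ndufaf3 and Clec16a (both 0.88), Tbx5 had Olfr223 (0.89, though well above background on only 6 arrays) and Zmpste24 (0.88), Tbx20 had Fam168a (0.84) and Parg (0.83), and Mef2a had Miga2 and Spring1 (both 0.82). Mef2c had Vezf1 (0.95) and Bend4 (0.90), but without slide 4 these were 0.62 and 0.37, so they rest on those arrays. None of these 18 genes passed limma's test in males, in females or in the shared response, in which the smallest adjusted p was 0.0646 for Miga2.

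Promoters of Srf and Hand2 are shown because they hold short DNA words read by members of this group. The words marked are the CArG box bound by SRF and the GATA words bound by GATA4 and GATA6. The RefSeq promoter table (GRCm38.p6) matched 6 of the 10 factors, Hand2, Mef2a, Mef2c, Nkx2-5, Srf and Tbx20, and the 250 bases before each start were searched on both strands. Capitals mark the CArG box in Srf (chr17:46556163-46556412, minus strand) and AGATAA or TGATAA, on either strand, in Hand2 (chr8:57320733-57320982, plus strand), both written 5′ to 3′ along the gene.
Srf: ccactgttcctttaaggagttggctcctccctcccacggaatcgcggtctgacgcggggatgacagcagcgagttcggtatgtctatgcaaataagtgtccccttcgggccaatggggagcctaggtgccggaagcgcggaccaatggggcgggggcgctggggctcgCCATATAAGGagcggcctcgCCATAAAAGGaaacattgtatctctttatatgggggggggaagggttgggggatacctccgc
Hand2: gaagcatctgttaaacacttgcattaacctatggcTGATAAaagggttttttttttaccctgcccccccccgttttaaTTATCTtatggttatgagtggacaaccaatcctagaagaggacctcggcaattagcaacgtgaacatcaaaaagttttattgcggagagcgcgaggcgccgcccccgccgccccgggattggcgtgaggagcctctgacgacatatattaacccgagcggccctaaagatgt
The Srf promoter had 2 CArG boxes, 73 and 53 bases before the start, and was the only one of the 6 with this box, which 1.47% of 32851 promoters of this length held. The Hand2 promoter had 2 of the GATA words, 210 and 167 bases before the start, and 16.6% of all promoters held at least 1. It also had 1 match, not marked, of another word searched, CAAGTG, 230 bases before the start, which 11.6% of all promoters held. These are matches of letters, and binding was not measured.

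Genes on which these factors act, or with which they work, were described by lists, each gene by its brightest probe. Beside the counts at an unadjusted p under 0.05 that follow, the shares of all tested genes were 13.2% in males, 7.79% in females and 12.8% in the shared response. Of 17 partners and cofactors, 16 were tested and 0 passed in males, in females or in the shared response, and 5, 3 and 4 had an unadjusted p under 0.05. Their shared median was 0.01, and the largest were Ankrd1, a stress-responsive partner of muscle transcription factors, at 0.27 (adjusted p = 0.415) and Ep300, a histone acetyltransferase, at 0.24 (adjusted p = 0.258). Ankrd1 ran from 0.13 to 0.34 over the settings, and in males its sign turned without male meth trial 2 replicate 1, which read 7.40 where the other male meth arrays read 6.43 to 6.58. Of 15 relatives from the same families, 12 were tested and 0 passed in each of the 3, with 2, 0 and 0 at an unadjusted p under 0.05 and a shared median of 0.08. Gata3 was at 0.21 and Tbx18, a T-box factor of the sinus node and epicardium, at 0.17, with its second probe at -0.15. Among 14 tested of 16 other heart transcription factors 0 passed in each, with 1, 1 and 2 at an unadjusted p under 0.05 and a shared median of 0.04. Nr2f2, an atrial factor, was at 0.23 (standard error 0.09), and Shox2, a pacemaker factor, was not well above background on 12 of the 15 arrays, so no fold is given.

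Of 24 cardiomyocyte target genes of these factors, all tested, 1 fell in the shared response, where 2.22% of all genes passed, with 0 in males and 0 in females, where 4 and 3 had an unadjusted p under 0.05. It was Slc8a1, the sodium-calcium exchanger that removes calcium from heart muscle cells, which fell by 0.41 (standard error 0.09, adjusted p = 0.0368). Its probe A_52_P876218 read -0.06, -0.52, -0.01 and -0.15 in male meth and 0.02, -0.23, 0.73 and 0.62 in male PBS hearts. In females it read -0.11, -0.01, -0.03 and -0.06 after meth and 0.36, 0.32 and 0.23 after PBS. All female PBS arrays lay above all female meth arrays, while the males overlapped through trial 1.

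Of the 4 Slc8a1 probes 3 passed in the shared response, and A_52_P562704 did not (-0.15, adjusted p = 0.310). The call did not hold widely. It passed without male meth trial 1 replicate 1, male PBS trial 1 replicate 2 or female meth replicate 2 and was lost without any one of the 12 other arrays, with adjusted p-values of 0.00371 to 0.0929. It was also lost in 8 of 13 other settings, among them the replicate block (-0.41, adjusted p = 0.0803) and the fit without the slide 4 arrays (-0.44, adjusted p = 0.121), while the log2 fold change stayed between -0.49 and -0.27 throughout.

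Of 14 SRF target genes, all tested, 0 passed in males, in females or in the shared response, with 0, 2 and 0 at an unadjusted p under 0.05 and a shared median of -0.04. Egr1, an immediate early transcription factor, was at -0.28 (adjusted p = 0.352) and Acta1, skeletal actin, at -0.25 (adjusted p = 0.671). The promoter table held 10 of the 14, 4 of them with a CArG box (Acta1, Egr2, Myl9 and Vcl), and the shared median was -0.01 for these 4 and -0.04 for the 6 without.

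**Figure D4:**
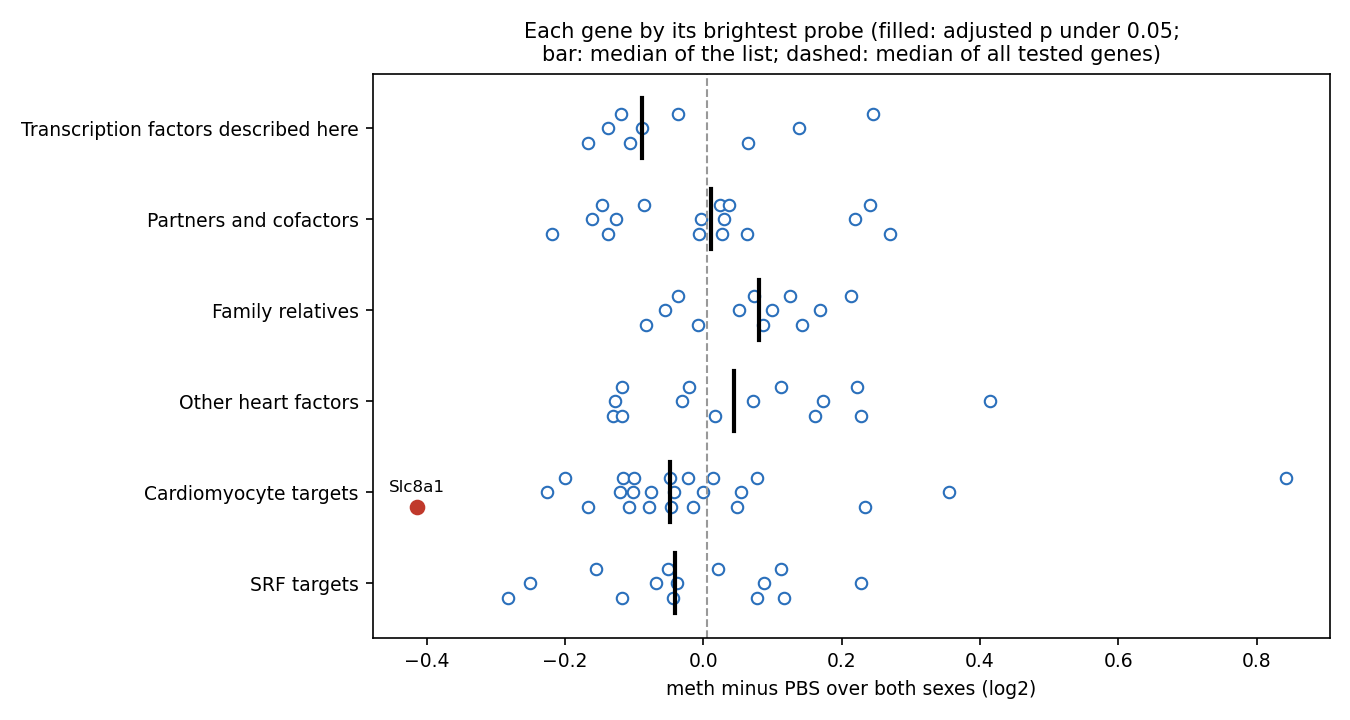
Shared log2 fold change, meth minus PBS over both sexes, of each tested gene by list, with the list's median as a bar and the median of all tested genes as a dashed line. The filled point is Slc8a1 at -0.41, the only gene of these lists past the threshold.

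Markers of other tissues passed in the same comparisons in which these factors and the heart cell markers did not. Of the 47 heart cell markers 0 passed in males, in females or in the shared response, with 9, 4 and 10 at an unadjusted p under 0.05 (13.2%, 7.79% and 12.8% of all genes). Of 60 markers in 14 lists of other tissues and blood, 13 were higher and 1 lower in male meth hearts, 2 were higher and 1 lower in female meth hearts, and 13 were higher and 0 lower in the shared response, where 1.33%, 0.433% and 2.22% of all genes passed. Airway secretory markers were the largest, with 6 of 6 tested higher in males, and their summed signal was 35.7 to 176 in male meth hearts and 0.492 to 0.592 in male PBS hearts, while in females meth (1.13 to 4.04) and PBS (1.60 to 3.05) overlapped. The part of these tissues in the values of the core cardiac transcription factors was not tested.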

How the data were processed

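Heart RNA of 15 mice was read on 1-colour arrays. Spots were extracted by the authors with Agilent Feature Extraction (10.5.1.1 per the file headers, 9.1 in the processing notes), and the deposited intensity values are background-subtracted without further normalization. A log2 value table, also deposited by the authors, equals the log2 signal shifted by a constant for each array and served as an alternative.

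Control spots were left out, outlier spots set to missing, spots of a probe averaged on the log2 scale, and each array shifted by its 75th percentile. Accessions were matched to RefSeq gene names for 27196 of 41174 probes. Tbx20 probe A_51_P427619 is named only by the newer of 2 design files. All 10 factors are named, from each list any gene that passed and otherwise the 2 with the largest shared log2 fold change, and for each factor the 2 genes most similar to it. A few genes and arrays were singled out after their values were seen. Members and lists were chosen with earlier results of these data known.

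The 28358 probes that 3 or more arrays had well above background were fitted with limma 3.58.1 (lmFit, eBayes) in R 4.3.3, with 4 groups and trial as terms, and adjusted by Benjamini-Hochberg over all of them at 0.05. The male responses by trial came from a fit with the male groups split by trial. Other steps ran in Python 3.11.15 with pandas 2.3.3 and matplotlib 3.10.9, and the fit was tested on simulated data.

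As a check of pairing, same-numbered meth and PBS arrays were correlated in their deviations from the group means over 23808 probes. In females, whose numbers follow the slides, the correlation was 0.30, 0.44 and 0.66 for the same number, but 0.63 and 0.54 with numbers 1 and 2 crossed, so these values do not support pairing by number. In the male trials it was -0.09 and 0.01, where 2 arrays a group give the crossed pairs the same size with the sign turned. Alternatives were normexp (offset 50, on the median pixel signal, since the files hold no mean), quantile normalization, a median shift, the deposited table, no filter, a filter on all 15 arrays, no trial term, trial as in the other label, slide for trial, the replicate block, trial 1 arrays only, only the groups compared, the mean over a gene's probes, each array left out and the methods' t-test. The fits without the slide 4 arrays and the slide terms were chosen after seeing the data.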

Additional observations from a re-analysis of the deposited data

Results flagged for a closer look

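Of 27 groups of 4 arrays, for 9 genes in male meth, male PBS and female meth hearts, 1 had an array far from the others. For Mef2c in male PBS hearts, trial 2 replicate 1 read 1.44, where the others lay close together (0.868 of the group's whole range separated it from the nearest of them). Chance gives about 1 such group in 20.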

How the results depend on the processing

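In the treatment and sex comparisons 0 of 9 genes passed under every setting run, with 1 exception, the 1 gene (Hand2) of the shared response with slide in place of trial; with the replicate block 0 of 9 passed in the 4 treatment comparisons it was run for. Of 45 log2 fold changes of the 9 genes in these 5 comparisons, 23 kept their sign under up to 31 settings and 22 turned under at least 1, the largest of these being 0.21 in size. On slide 3 the count of 3 became 0 with normexp, 1 with a median shift, 1 with no filter, 1 without the slide 4 arrays and 1 to 3 with an array left out. The Gata4 and Srf calls on slide 3 were also lost with the mean over a gene's probes. On slide 4 the count stayed at 3 to 5. Other heart transcription factors past the threshold in the shared response went from 0 to 1 with the mean over a gene's probes. Cardiomyocyte target genes in males went from 0 to 1 with that mean, and 0 to 1 with an array left out. In the shared response their count of 1 was 0 with normexp, the median shift, no filter, no trial term, trial as in the other label, the replicate block, trial 1 arrays only and without the slide 4 arrays, and 0 to 1 with an array left out. The cause was not tested. Signal over background limits Hand1, and no fold is given for it.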
